A study of Mus musculus with 12 samples.

Results

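The genes described here encode the subunits and direct partners of the proteasome in newborn mouse brain. They are all table entries whose symbol begins with Psma, Psmb, Psmc, Psmd, Psme or Psmf and a digit. Of the 23979 entries with a symbol of their own in each of the deposited files, 46 fit. One of them, Psmc3ip, encodes a partner of meiotic recombination and no proteasome protein, which leaves 45 entries. These are 7 alpha and 7 beta subunits of the constitutive core, 3 immunoproteasome subunits, 2 tissue-specific core subunits, 6 ATPases and 11 non-ATPases of the regulatory particle, 3 assembly chaperones, 5 activator entries and 1 inhibitor.

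The proteasome degrades proteins that carry ubiquitin chains. Its core is a barrel of alpha and beta rings with the proteolytic sites of Psmb5, Psmb6 and Psmb7 inside, and the regulatory particle on its ends binds the chain, removes it, unfolds the substrate with its ATPases and feeds it into the barrel. In cells exposed to interferon or of immune origin, Psmb8, Psmb9 and Psmb10 take the places of the constitutive catalytic subunits in newly built cores, and the activator of Psme1 and Psme2 can cap them. In many cell types the transcription factor Nrf1, encoded by Nfe2l1, raises the subunit genes together when proteasome activity falls short.

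RNA came from flash-frozen cortex and subcortex of mice at postnatal day 0 (P0), in 4 groups of 3 libraries each, made with a stranded total RNA kit. The control mice are wild type (WT). The other mice, a vascular knockout of Reck (vKO), carry Reck flex2/Δex1 with Tie2Cre, and the strain of all animals is given as Mixed. Reck is a membrane protein that acts with Gpr124 in Wnt7 signalling to brain endothelium, and the comparison asks how tissue RNA differs when it is removed from vessels. Tie2Cre is active in endothelial and blood lineages, while the RNA measured is that of all cells of the tissue. The labels do not say whether the replicates of a group are separate animals.

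Each table holds 1 FPKM value (fragments scaled by transcript length and sequencing depth) per group, so no value has a spread over libraries, and the depth is unknown. The verbs rose and fell, and the word called, are kept for genes whose q-value in the authors' deposited table is under 0.05. A ratio is log2((vKO FPKM + 1)/(WT FPKM + 1)), positive where vKO is higher; it understates changes of genes with low FPKM. In cortex, ratios of all genes were lower for longer transcripts, so a second ratio is given with the trend removed, by subtracting the median of tested genes of like transcript length and GC content. The tissues were normalised separately, so levels set across them are side by side only.

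Reck had cortex values of 2.91 FPKM (WT) and 3.23 (vKO; q = 0.639 in the authors' deposited table) and subcortex values of 2.37 and 3.49 (q = 0.333 in the authors' deposited table). These values over the whole gene and whole tissue do not check the deletion. Most regional markers fitted the tissue labels. Tbr1 stood at 29.0 and 22.2 FPKM in WT and vKO cortex against 0.537 and 0.687 in subcortex. Tcf7l2, a thalamic marker, stood at 4.71 and 1.07 against 37.0 and 33.2. Of the listed subcortical markers, Dlx5 (6.39 and 5.06 against 1.07 and 0.898) and Isl1 (9.53 and 7.32 against 4.87 and 5.73) were higher in cortex. Tcf7l2 and Lhx9 (3.76 to 2.29) fell in vKO cortex, by the authors' deposited table. The X-inactivation RNA Xist went from 0.0417 FPKM in WT to 18.6 in vKO cortex and from 0.0369 to 10.2 in subcortex, while the Y-linked Eif2s3y was lower in vKO in both, from 30.4 to 15.8 and from 27.6 to 13.3. Sex-linked genes thus differed between the genotypes in both tissues, so the sex make-up of the groups appears to differ. Sex then cannot be told apart from genotype here, and its part in the results was not tested. Among the proteasome genes Psmd10 lies on the X chromosome, and among the pathway genes named below Ubqln2 does.

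In vKO cortex most proteasome genes had higher values than in WT. The authors' minimum for testing was passed by 43 entries, Psmc3ip among them. Of these, 17 rose, 1 fell and 25 were not called, by the authors' deposited table, and 40 of the 43 ratios were above 0. Over all tested cortex entries, 8.15% were called higher and 11.3% lower. The median ratio of the 43 was 0.35, against 0.00 for all 13591 tested entries. With the trend in transcript length and GC content removed it was 0.11, and 34 of the 43 were above 0. Without Psmc3ip, 24 of 42 were not called and 39 ratios were above 0, with a median of 0.36. With the trend removed this median was 0.10, and 33 of the 42 were above 0. In subcortex 0 of the 43 were called in either direction in the authors' deposited table, made with Cuffdiff, where 0.452% and 0.262% of all tested entries were called higher and lower. There 23 ratios lay above and 20 below 0, with a median of 0.01. None of the 43 had an unadjusted p under 0.05 in the subcortex table, a mark that 6.31% of its entries passed. Whether the response differed between the tissues was not tested, since no value per library is in the tables.

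**Figure D1:**
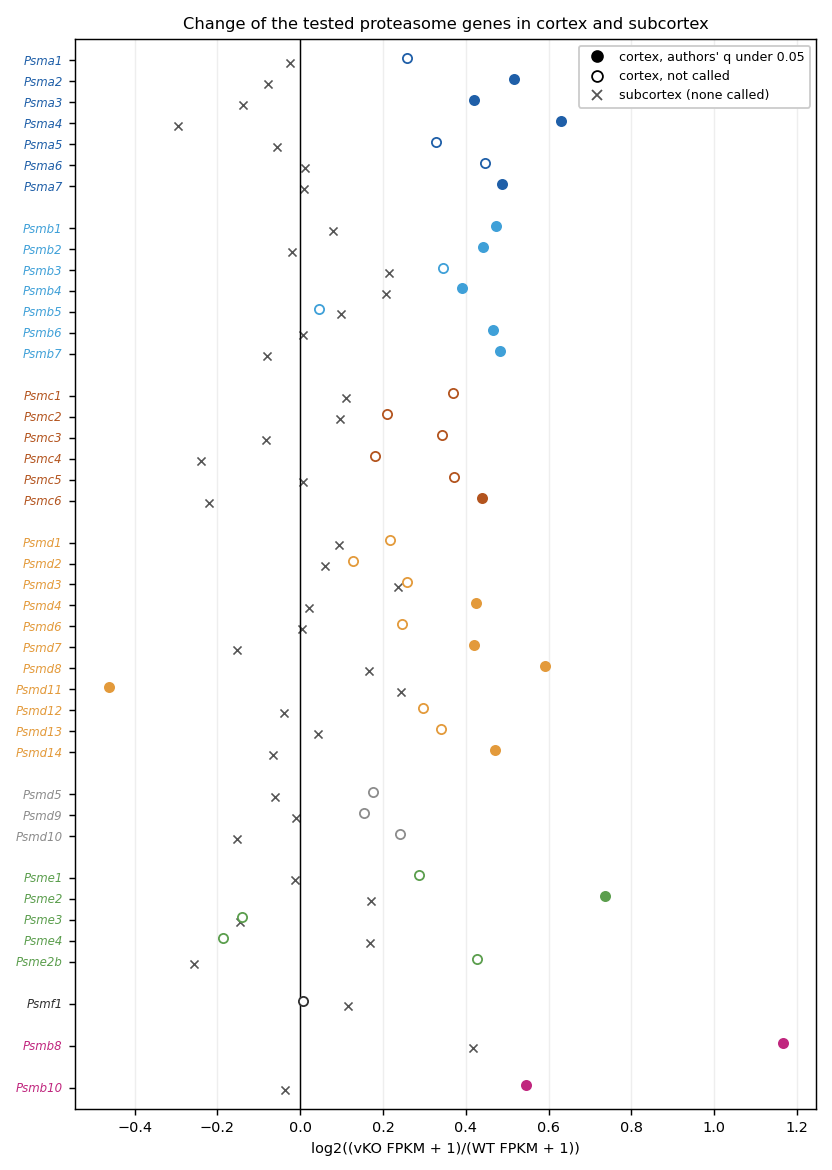
Log2 ratio of vKO over WT (x axis, log2 of FPKM with 1 added) for the 42 tested proteasome genes, by class. Filled circles are cortex calls with a q-value under 0.05 in the authors' deposited table, open circles are cortex values not called, and crosses are subcortex; in cortex all but Psmd11, Psme3 and Psme4 lie above 0, and after removal of the trend in length and GC Psmb3, Psmb5, Psmc4, Psmd6, Psmd10 and Psme1 lie below it too.

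Promoter windows show letters that the classes do and do not share. RefSeq windows (GRCm38.p6, from 250 bases before to 50 after the start) were found for 39 of the 46 entries, and 5 short motifs were searched on both strands, each match counted whether or not it overlaps another motif. The core of the antioxidant response element, TGACNNNGC, which Nrf1 and its relative Nrf2 bind with small Maf proteins, was in 6 of the 39 windows (15.4%), near its share of 14.7% among windows of genes tested in cortex. Psmb5 and Psmb6, both catalytic, hold it just before the start, at -47 and -9. They are shown because only Psmb6 rose in cortex; capitals mark the motif. The Psmb5 window is chr14:54617946-54618245, minus strand, and that of Psmb6 is chr11:70525107-70525406, plus strand, each read 5′ to 3′ along its gene.
Psmb5: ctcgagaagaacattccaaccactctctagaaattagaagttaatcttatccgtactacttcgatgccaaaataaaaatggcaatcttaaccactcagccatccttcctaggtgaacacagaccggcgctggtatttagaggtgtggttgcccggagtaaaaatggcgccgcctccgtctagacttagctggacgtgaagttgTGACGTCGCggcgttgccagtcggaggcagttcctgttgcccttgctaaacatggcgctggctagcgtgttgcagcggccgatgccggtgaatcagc
Psmb6: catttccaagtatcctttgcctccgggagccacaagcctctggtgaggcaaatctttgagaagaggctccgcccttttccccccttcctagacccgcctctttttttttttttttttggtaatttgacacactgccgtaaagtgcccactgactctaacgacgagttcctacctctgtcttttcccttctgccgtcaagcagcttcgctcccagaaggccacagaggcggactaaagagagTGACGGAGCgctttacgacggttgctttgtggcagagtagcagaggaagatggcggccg

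The ETS core CCGGAAG, which proteins of the ETS family bind, was in 9 of 14 regulatory particle windows (64.3%) and in 0 of 11 windows of the constitutive core, against 17.6% of windows of genes tested in cortex and 9.12% of all 27025 windows. By call, it was in 2 of 13 windows of entries called higher in cortex (15.4%) and in 10 of 24 of those tested and not called higher (41.7%). The windows of Psmc6, which rose in cortex, and of Psmd11, which fell there, both hold it, in capitals below. That of Psmc6 (chr14:45329574-45329873, plus strand) has it at -100, and that of Psmd11 (chr11:80428365-80428664, plus strand) at -11 on the other strand, so it reads CTTCCGG.
Psmc6: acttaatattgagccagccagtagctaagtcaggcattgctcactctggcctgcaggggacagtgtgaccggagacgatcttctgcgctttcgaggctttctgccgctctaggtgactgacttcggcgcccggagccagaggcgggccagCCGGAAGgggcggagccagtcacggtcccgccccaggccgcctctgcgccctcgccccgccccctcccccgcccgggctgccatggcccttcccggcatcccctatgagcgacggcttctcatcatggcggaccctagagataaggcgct
Psmd11: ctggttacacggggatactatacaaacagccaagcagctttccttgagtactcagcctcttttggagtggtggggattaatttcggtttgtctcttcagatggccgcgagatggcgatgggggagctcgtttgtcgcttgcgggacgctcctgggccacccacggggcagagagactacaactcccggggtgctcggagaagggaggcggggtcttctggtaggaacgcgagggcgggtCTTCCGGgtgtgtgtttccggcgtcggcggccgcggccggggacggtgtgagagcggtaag

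CCAAT, bound by NF-Y, was in 6 of 11 core windows (54.5%) and 4 of 14 regulatory particle windows (28.6%), against 38.7% of windows of genes tested in cortex. Of the immune motifs, the interferon-stimulated core GAAANNGAA was in 5 of 39 windows (12.8%) and the kappa B form GGGANNTCC in 1 (2.56%), against 6.71% and 5.28% of windows of genes tested in cortex. The interferon-stimulated core was in the windows of Psmb3, Psmb4, Psmd4, Psmd9 and Psme1, and the kappa B form in that of Psmb11. Neither was in the windows of Psmb8, Psmb9, Psmb10 or Psme2. A match is a description of letters only.

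The alpha ring forms the gate and outer wall of the core. All 7 of its genes had positive ratios in cortex, and 4 rose (median 0.45, 0.13 with the trend removed). Psma4 (chromosome 9, 54950257 to 54958030, mm10) had the largest change of the ring: it went from 64.9 FPKM in WT cortex to 101 in vKO, a ratio of 0.63, and rose with q = 0.000806 in the authors' deposited table. In subcortex the same gene was at 86.0 and 69.8 (ratio -0.30, unadjusted p = 0.0711 in the authors' deposited table), the lowest ratio of the set there. Psma4 was thus highest in vKO cortex and lowest in WT cortex.

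Psma2 (chromosome 13, 14613242 to 14625673) rose from 95.6 to 137 FPKM in cortex (ratio 0.52, q = 0.00492 in the authors' deposited table) and stood at 132 and 125 in subcortex. Psma7 (chromosome 2, 180036367 to 180042464), the most abundant gene of the ring, rose from 128 to 179 (0.49, q = 0.00655 in the authors' deposited table), with 165.5 and 166.6 in subcortex. Psma3 rose from 73.5 to 98.6 (0.42, q = 0.0319 in the authors' deposited table), with 89.2 and 80.9 in subcortex. For all 3 the WT cortex value was the lowest of the 4 groups.

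The other 3 alpha genes were not called. Psma6 had 81.7 and 112 FPKM in cortex (0.45, q = 0.0806 in the authors' deposited table) and 94.8 and 95.5 in subcortex. Psma1 was at 72.7 and 87.0 (0.26) and at 75.2 and 74.0. Psma5, the least abundant of the ring, was at 57.0 and 71.8 (0.33) and at 65.6 and 63.0. Subcortex ratios of the ring ran from -0.30 to 0.01, with 5 of 7 below 0 (median -0.06, 0.05 with the trend removed).

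The beta rings hold the proteolytic sites, and 5 of their 7 constitutive genes rose in cortex (median 0.44, 0.06 with the trend removed). Psmb6 (chromosome 11, 70525357 to 70527858), which cuts after acidic residues, rose from 126 to 175 FPKM (0.47, q = 0.0132 in the authors' deposited table). Psmb7 (chromosome 2, 38588046 to 38643906), which cuts after basic residues, rose from 113 to 158 (0.48, q = 0.0132 in the authors' deposited table). Psmb5 (chromosome 14, 54614120 to 54617995), which cuts after hydrophobic residues and is the main target of proteasome inhibitors, stood at 92.2 and 95.2 (0.04, q = 0.887 in the authors' deposited table). Of the 3 catalytic genes, Psmb5 alone was not called, and with the trend removed its ratio was -0.29. Subcortex values were 173 and 173 for Psmb6, 154 and 146 for Psmb7, and 108 and 115 for Psmb5.

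Reads of Psmb5 and Psmb7 may be shared with other genes. Of the 50-base words of the Psmb5 transcript 49.4% also occur in Gm3375, and 28.1% of those of Psmb7 in its neighbour Nek6. In all, 10 of the 46 entries share at least 20% of such words with another gene, among them Psma3, Psma4, Psma5, Psmb3 and Psmd2, and the sources used here do not say how the authors' counting split these reads.

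Of the 4 beta genes without a proteolytic site, 3 rose in cortex. Psmb1 rose from 103 to 143 FPKM (0.47, q = 0.0113 in the authors' deposited table), and Psmb2 from 85.5 to 116 (0.44, q = 0.0225 in the authors' deposited table). Psmb4, the most abundant gene of the set in WT cortex, rose from 142 to 187 (0.39, q = 0.0396 in the authors' deposited table), but its ratio with the trend removed was 0.00. Psmb3, at 82.3 and 105 (0.35), was not called (q = 0.0980 in the authors' deposited table) and was at -0.04 with the trend removed. In subcortex Psmb1 stood at 126 and 133, Psmb2 at 98.6 and 97.2, Psmb4 at 159 and 183, and Psmb3 at 97.5 and 113. The beta median ratio there was 0.08, with 5 of 7 above 0.

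Short, abundant transcripts as a group were higher in vKO cortex. Among the 352 other tested entries within the core's range of transcript length (766 to 2911 bases) and of WT FPKM (57.0 to 142), the authors' deposited table calls 30.4% higher and 0.568% lower. Their median ratio was 0.31, with quartiles of 0.16 and 0.43. Beside these the core had 9 of 14 called higher and a median of 0.44, or 0.09 with the trend removed, with 12 of 14 above 0. In the shortest 10% of all tested transcripts, up to 1200 bases, 28.3% were called higher and the median ratio was 0.36, against 7 of 12 proteasome genes and a median of 0.44. Among transcripts of 1745 to 2216 bases, another 10%, these were 12.3% and 0.16, against 3 of 8 and 0.34.

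**Figure D2:**
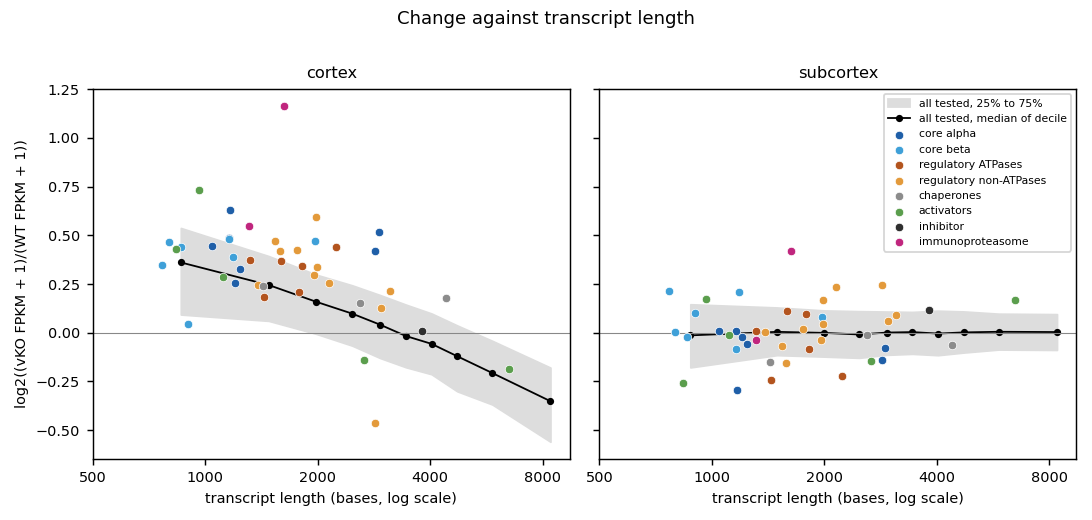
Log2 ratio of vKO over WT against transcript length in bases (log scale) for the tested proteasome genes, coloured by class, in cortex and subcortex. The black line joins the medians of all tested entries in 10 equal classes of length and the grey band spans their middle 50%; in cortex the line runs from 0.36 to -0.35 and most proteasome genes lie above it, and in subcortex it stays near 0.

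Across all tested cortex entries the Spearman correlation of the ratio with transcript length was -0.551 (13445 entries), over the 42 tested proteasome genes it was -0.439, and over the 31 core and regulatory particle genes -0.232. In subcortex these were 0.021, 0.092 and 0.071. These describe genes of the same pooled values, which share libraries and are not independent.

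Of the 17 regulatory particle genes 5 rose and 1 fell in cortex, by the authors' deposited table, with a median ratio of 0.34 (0.16 with the trend removed, 14 of 17 above 0). Its 6 ATPases, which unfold the substrate and open the gate, all had positive ratios, and 1 rose. Psmc6 (chromosome 14, 45329824 to 45349071), whose promoter is shown above, rose from 68.6 to 93.4 FPKM (0.44, q = 0.0236 in the authors' deposited table). Its subcortex values were 95.1 and 81.5 (-0.22, not called).

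Among the ATPases not called, Psmc1 stood at 64.1 and 83.0 FPKM in cortex (0.37, q = 0.0570 in the authors' deposited table) and had the highest subcortex ratio of the class, 0.11, from 77.4 and 83.7. Psmc3, the most abundant in WT cortex, was at 71.9 and 91.5 (0.34) and at 86.5 and 81.7 in subcortex. Psmc4 had the lowest ratio of the class in both tissues: 68.2 and 77.5 in cortex (0.18, and -0.12 with the trend removed) and 76.0 and 64.2 in subcortex (-0.24). Psmc2, the least abundant, was at 36.8 and 42.7 in cortex and at 45.1 and 48.3 in subcortex, and Psmc5 had a cortex ratio of 0.37 (q = 0.0577 in the authors' deposited table). The class was split in subcortex, with 3 ratios above and 3 below 0.

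Of the 11 non-ATPases, 4 rose and 1 fell in cortex. Psmd8 (chromosome 7, 29174187 to 29180673), a lid subunit, had the largest rise, from 63.3 to 96.0 FPKM (0.59, q = 0.000806 in the authors' deposited table). Psmd14 (chromosome 2, 61711694 to 61800376), the metalloprotease that cuts the ubiquitin chain off the substrate, rose from 65.7 to 91.4 (0.47, q = 0.0119 in the authors' deposited table). Psmd7, which pairs with Psmd14, rose from 37.3 to 50.3 (0.42, q = 0.0269 in the authors' deposited table). Psmd4, a receptor for ubiquitin chains, rose from 69.6 to 93.7 (0.42, q = 0.0266 in the authors' deposited table). With the trend removed these 4 ratios were 0.41, 0.22, 0.18 and 0.29.

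In subcortex none of these 4 was called. Psmd8 was at 80.9 and 90.9 FPKM, Psmd14 at 60.3 and 57.6, Psmd7 at 47.5 and 42.6 (-0.15, the lowest of the class), and Psmd4, the most abundant of the class in that WT tissue, at 87.1 and 88.4.

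Psmd11 went the other way in cortex. This gene (chromosome 11, 80428615 to 80472133) encodes the lid subunit that clamps the regulatory particle to the core. It had the lowest WT level of the 31 core and regulatory particle genes, and it fell from 25.3 to 18.1 FPKM (-0.46, q = 0.0167 in the authors' deposited table). It was the single proteasome gene called lower, and its ratio was -0.50 with the trend removed. Its longest coding transcript has 2848 bases, close to those of Psma3 (2846) and Psma2 (2911), which both rose. In subcortex it stood at 14.2 and 17.0 (0.24, unadjusted p = 0.147 in the authors' deposited table), the highest ratio of its class there. WT cortex was thus its highest group and WT subcortex its lowest.

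The 6 other non-ATPases were not called and had cortex ratios from 0.13 to 0.34. Psmd2, the scaffold subunit that docks ubiquitin and shuttle factors and the most abundant of the class in WT cortex, stood at 81.3 and 88.9 FPKM (0.13) and at 83.4 and 86.9 in subcortex. With the trend removed Psmd6 was at -0.04 in cortex, from 0.25.

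**Figure D3:**
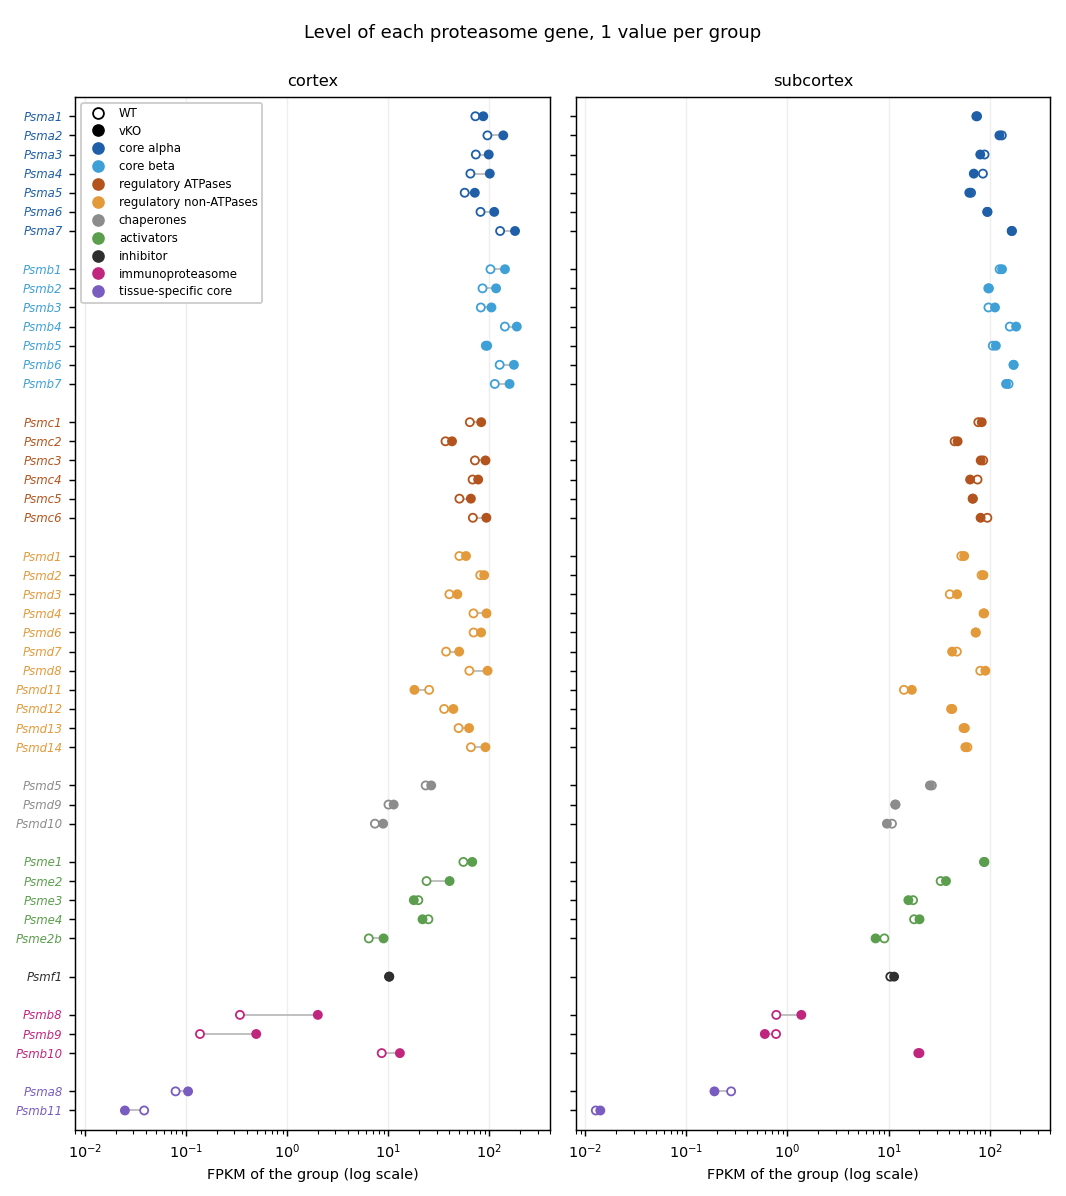
FPKM (log scale) of the 45 proteasome genes in cortex and subcortex, 1 value per group, open for WT and filled for vKO, with a grey line joining them and classes by colour. Core genes lie near 100 FPKM in all groups, activators and chaperones mostly lower, and Psmb8, Psmb9, Psma8 and Psmb11 near or under 1.

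The core genes had a higher median FPKM than the regulatory particle genes in all 4 groups. FPKM is scaled by length, but effects of length, GC content and shared reads can remain when genes are set beside each other. Core transcripts were also shorter, with a median of 1162.5 bases against 1819. The median core level was 88.9 FPKM in WT cortex, 114.1 in vKO cortex, 103.1 in WT subcortex and 114.3 in vKO subcortex. The medians of the regulatory particle were 63.3, 77.5, 68.0 and 64.2. The core median was 1.40 times that of the regulatory particle in WT cortex and 1.47 times in vKO cortex, and 1.52 and 1.78 times in subcortex. The subcortex medians fall on different genes in WT and vKO. Gene by gene, core ratios there were split, 7 above and 7 below 0, with a median of -0.01. Those of the regulatory particle had a median of 0.02. Within WT cortex the 14 core genes spanned a 2.50-fold range and the 17 regulatory particle genes a 3.21-fold range.

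The order of the 31 genes was much the same between groups, with Spearman correlations of 0.919 between WT and vKO cortex, 0.962 between WT and vKO subcortex, and 0.943 between the WT tissues. In WT mice 29 of the 31 had a higher FPKM in subcortex than in cortex (median 1.20 times, 1.04 for all entries tested in both). In vKO mice 5 of the 31 did (median 0.928 times, 1.02 for all entries). Both counts use tables normalised separately, and were not tested.

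The 3 immunoproteasome genes were less abundant than the constitutive subunits they replace, and 2 of them rose in cortex. Psmb8 (chromosome 17, 34198195 to 34201454), which replaces Psmb5, rose from 0.340 to 2.01 FPKM (5.90-fold without the added 1, ratio 1.17, q = 0.0111 in the authors' deposited table). Its ratio was 0.96 with the trend removed. In subcortex Psmb8 stood at 0.775 and 1.37 (0.42, unadjusted p = 0.0601 in the authors' deposited table), again the largest ratio of the set. Psmb10 (chromosome 8, 105935728 to 105938392), which replaces Psmb7, rose from 8.60 to 13.0 (0.55, 0.33 with the trend removed, q = 0.0210 in the authors' deposited table) and was at 20.2 and 19.7 in subcortex. Psmb9 (chromosome 17, 34182099 to 34187330), which replaces Psmb6 and lies near Psmb8 in the MHC region, was too low to be tested. It was at 0.137 and 0.493 in cortex and at 0.771 and 0.597 in subcortex.

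Set against its constitutive counterpart, Psmb8 made up 0.368% of the summed FPKM of Psmb8 and Psmb5 in WT cortex and 2.07% in vKO cortex. In subcortex this was 0.715% and 1.17%. Psmb9 made up 0.108% and 0.281% of its pair with Psmb6 in cortex, and 0.445% and 0.344% in subcortex. Psmb10 held a much larger part of its pair with Psmb7, 7.07% and 7.59% in cortex and 11.6% and 11.9% in subcortex. In every group the constitutive gene was the more abundant by at least 7.39 times.

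**Figure D4:**
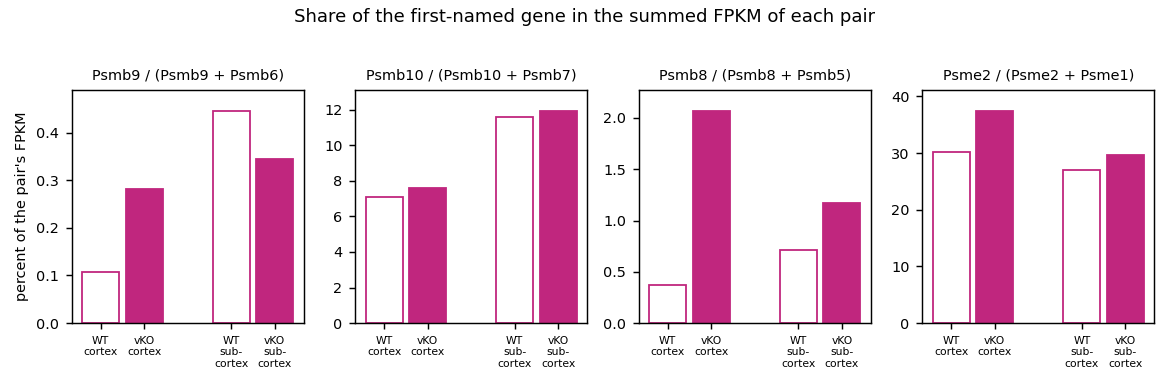
Percent of the summed FPKM of a pair that comes from the first-named gene (y axis, from 0, a scale of its own in each panel) in the 4 groups, 1 value per group, open for WT and filled for vKO. The share of Psmb8 is 0.368% in WT and 2.07% in vKO cortex, and that of Psmb10 changes by less, from 7.07% to 7.59%.

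Markers of blood and immune cells moved with genotype as well. In cortex, by the authors' deposited table, 7 of 10 microglial genes rose and 0 fell, and their summed FPKM was 65.8 in WT and 147 in vKO. Of 7 macrophage genes 6 rose there (sum 15.5 and 71.4). The sum of 6 neutrophil genes was 2.21 and 36.9, nearly all of it from S100a8 (0.941 and 18.4, not called) and S100a9 (0.908 and 17.2, called higher in the authors' deposited table). The other 4 were not tested, and Elane is listed at 0 in both groups. Erythroid entries summed to 309 and 5470, with 2 of 5 tested called higher: Alas2 and the joint beta-globin entry. The alpha-globin entries were not called.

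In subcortex 0 of 9 tested microglial genes were called, with 1 at an unadjusted p under 0.05 in the authors' deposited table, made with Cuffdiff, and a median ratio of 0.02. Of 6 tested macrophage genes 2 rose there too, Lyz2 from 4.86 to 10.1 FPKM and Cd163 from 0.404 to 1.15 (sum 15.8 and 21.3). Neutrophil genes summed to 2.23 and 7.95 and erythroid entries to 531 and 634, with none called. Of 7 lymphocyte genes none was tested, with sums of 0.397 and 0.384 in cortex, and Cd3g is listed at 0 in both groups. Endothelial genes summed to 93.9 and 60.1 in cortex, with 3 of 7 called lower. These were Cldn5 (46.8 to 24.6), Slco1c1 (14.2 to 6.70) and Kdr (11.0 to 5.30). Pecam1 (6.49 and 8.47), Cdh5 (6.89 and 6.80), Tie1 (4.32 and 4.58) and Tek (4.23 and 3.57) were not called in cortex. In subcortex the endothelial genes summed to 74.6 and 71.7. There Pecam1 (5.12 to 10.1) and Cdh5 (3.62 to 6.45) rose and Slco1c1 (10.7 to 1.82) fell, by the authors' deposited table. The part of these cells in the proteasome values was not tested. In whole tissue, a change in cell number and a change in RNA per cell cannot be told apart.

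The partners of the immunoproteasome in antigen presentation were mixed: 5 of 12 tested genes rose in cortex and 0 fell, with a median ratio of 0.22 (0.15 with the trend removed), and in subcortex 0 of 13 were called and 4 had an unadjusted p under 0.05, all 4 higher in vKO. B2m, the light chain of MHC class I, rose from 19.8 to 36.8 FPKM (0.86, q = 0.000806 in the authors' deposited table). H2-K1, a class I heavy chain, rose from 2.56 to 4.86 (0.72), H2-D1 from 10.9 to 16.6 (0.56), the myeloid factor Irf8 from 0.599 to 1.20 (0.46) and the interferon gamma receptor chain Ifngr2 from 32.1 to 42.7 (0.40), all by the authors' deposited table. Tap1, the peptide transporter gene between Psmb9 and Psmb8, stood at 1.02 and 0.997 (q = 0.964 in the authors' deposited table). The interferon-induced gene Irf1, at 1.27 and 1.34, was not called. In subcortex Irf1 stood at 1.29 and 2.06 (unadjusted p = 0.0173, q = 0.529 in the authors' deposited table) and Tap1 at 1.66 and 2.34 (unadjusted p = 0.0456, q = 0.769 in the authors' deposited table).

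The activator genes did not move together. Psme2 (chromosome 14, 55587440 to 55591101), a chain of the interferon-inducible cap, rose from 23.9 to 40.4 FPKM in cortex (0.74, 0.35 with the trend removed, q = 0.000806 in the authors' deposited table). Its partner chain Psme1 (chromosome 14, 55578494 to 55585254), which lies close by, was at 55.3 and 67.7 (0.29, and -0.12 with the trend removed, q = 0.185 in the authors' deposited table). Psme2 thus made up 30.1% of the summed FPKM of this pair in WT cortex and 37.4% in vKO, and 27.0% and 29.6% in subcortex. The near copy Psme2b was at 6.41 and 8.97 (0.43, q = 0.105 in the authors' deposited table), and 59.3% of the 50-base words of Psme2 also occur in it, so the split of reads between them is uncertain.

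Psme3, the nuclear activator, stood at 19.8 and 17.9 FPKM in cortex (-0.14, -0.27 with the trend removed), and Psme4, a large single-chain activator, at 24.9 and 21.8 (-0.19, -0.05 with the trend removed). Neither was called, with q = 0.555 and 0.381 in the authors' deposited table. The median ratio of the 5 entries was 0.29, and -0.05 with the trend removed. In subcortex Psme1 was at 88.9 and 88.1, Psme2 at 32.8 and 37.1, Psme2b at 9.10 and 7.45, Psme3 at 17.5 and 15.7 and Psme4 at 17.9 and 20.3, none of them called. Psmf1, which encodes a binding partner of the core first known as an inhibitor, was level at 10.2 and 10.2 in cortex (0.01, q = 0.984 in the authors' deposited table) and at 10.4 and 11.4 in subcortex.

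The 3 chaperones that help assemble the base of the regulatory particle were below the median of the regulatory particle genes in every group and were not called. Psmd5 stood at 23.4 and 26.6 FPKM in cortex (0.18), Psmd9 at 10.04 and 11.3 (0.16) and Psmd10, the X-linked oncoprotein gankyrin, at 7.37 and 8.88 (0.24, and -0.01 with the trend removed). Their subcortex values were 26.9 and 25.7, 11.7 and 11.6, and 10.8 and 9.64. Psma8, the testis relative of Psma7, was at 0.0785 and 0.104 in cortex and at 0.277 and 0.189 in subcortex, and Psmb11, the thymus relative of Psmb5, at 0.0384 and 0.0247 and at 0.0127 and 0.0141. These 2 were below the minimum for testing in both tables. Psmc3ip stood at 7.73 and 10.2 in cortex and at 5.14 and 5.24 in subcortex, and was not called.

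Other genes of the pathway were compared in the same way. Of 6 further regulatory particle subunits and bound enzymes, 1 rose in cortex (median ratio 0.18): Shfm1, the acidic lid subunit now named Sem1, from 157 to 217 FPKM (0.47, q = 0.0156 in the authors' deposited table). Of 7 assembly factors, 2 rose (median 0.25, and -0.04 with the trend removed). Pomp, which helps build the core, rose from 92.9 to 126 (0.44, q = 0.0250 in the authors' deposited table), and the alpha ring chaperone Psmg4 from 32.3 to 48.6 (0.57, q = 0.0236 in the authors' deposited table).

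Among genes that encode ubiquitin itself, Rps27a, in which it is fused to a ribosomal protein, rose in cortex from 82.1 to 126 FPKM (0.61, q = 0.000806 in the authors' deposited table). The polyubiquitin gene Ubb rose from 182 to 254 (0.48, q = 0.0135 in the authors' deposited table).

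Genes upstream of the subunits and of substrate delivery were nearly all not called. Most tested cortex entries were not called either: 8.15% passed as higher in vKO and 11.3% as lower. By the authors' deposited table, made with Cuffdiff, 0 of 12 genes of the Nrf1 route and of NF-Y were called in cortex (median ratio -0.06). An unadjusted p under 0.05 in that table was held by 4366 of all 13591 tested cortex entries. Of the 12 genes 3 passed this mark, all lower in vKO. Their ratios were -0.52 for Syvn1, -0.33 for Nfya and -0.32 for Ddi2, or -0.38, -0.32 and 0.11 with the trend removed. Nfe2l1 stood at 26.4 and 23.9 FPKM (q = 0.566 in the authors' deposited table), and Sel1l, of the membrane complex that extracts Nrf1, at 28.5 and 23.7 (q = 0.191 in the authors' deposited table). Of 12 ubiquitin-activating enzymes, shuttles and unfoldase genes 0 rose and 1 fell (median -0.03). This was the X-linked Ubqln2, a shuttle that brings ubiquitinated proteins to the proteasome, from 45.8 to 23.3 (-0.95, -0.94 with the trend removed, q = 0.000806 in the authors' deposited table). Its subcortex values were 26.6 in WT and 30.2 in vKO (0.18, not called). In subcortex 0 of the 54 tested genes of the 6 pathway lists, antigen presentation included, were called in the authors' deposited table, and 6 had an unadjusted p under 0.05.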

How the data were processed

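The series measured RNA of mouse cortex and subcortex by sequencing, in 12 libraries. The submitters' processing notes list the mm10 build and, in no stated order, Cuffdiff (version not stated), Cufflinks 2.2.1 and HISAT2 2.0.1. The sources used here do not give the annotation. Per the file headers, each tissue's deposited table holds 1 FPKM value per group and the p-value and q-value of the authors' own test. Their columns name the groups by the letters W and M, read as WT and vKO. Without a value per library, no SD, own test or depth can be given. The authors' p-values may measure technical spread only.

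Ratios (pseudocount 1 FPKM), medians and counts were computed with Python 3.11.15, pandas 2.3.3 and numpy 2.4.6. Entries were called at the authors' q-value under 0.05. Transcript length, GC content and shared 50-base words come from GENCODE M21 (same build, longest coding transcript). The trend was removed over 10 by 10 classes of length and GC, a step tested on simulated data. Promoters are from RefSeq.

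Members and lists were chosen with earlier results of these data known. Named genes are every immunoproteasome, tissue-specific, activator, inhibitor and chaperone entry. In the core and regulatory particle they are each called entry and, by class and tissue, the extremes of ratio and WT level, with a few added after their values were seen (Psmc5, Psmd6). Pathway lists name called genes, or the 2 most abundant where none was called. Tap1, Irf1, Syvn1, Nfya and Ddi2 were added after their values were seen. Some listed genes are not reported here by name. Alternatives were another q-value threshold, a minimum fold, other pseudocounts, centring, the length and GC trend, a minimum level and fewer entries.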

Additional observations from a re-analysis of the deposited data

How the results depend on the processing

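The count of proteasome genes called higher in cortex was 17. It was 5 at the authors' q-value under 0.01 and 4 with a minimum change of 1.5-fold with 1 added to both values, and the count called lower went from 1 to 0 under each of these, since fewer entries can pass them. With at least 1 FPKM in a group the counts were 17 and 1, and without Psme2 and Psme2b, a choice made after seeing the data, 16 and 1. The median cortex ratio of 0.35 was 0.37 with a pseudocount of 0.1 FPKM and 0.33 with 5 FPKM. It was 0.11 with the transcript length and GC trend removed and 0.36 without Psmc3ip. The cause of the fall with the trend removed was not tested. The median subcortex ratio of 0.0058 was 0.0418 with the trend removed, and its counts were 0 in both directions under every alternative run. No paired analysis was possible because the tables hold 1 value per group and no value per replicate. For the same reason no library could be left out. Depth is unknown from FPKM, so its limit on genes near 1 FPKM, such as Psmb8 and Psmb9, cannot be given.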
